A study of Homo sapiens with 14 samples.

Results

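The loci of 6 genes were examined: KLF2, KLF4, KLF5, KLF6, KLF17 and TFCP2L1. Each locus was the GENCODE gene body in hg38 with 60 kb added on both sides, and every chromatin immunoprecipitation (ChIP-seq) peak touching it was counted and placed. The loci held 88 of the 106424 BAF regions of the series, and the genes were 6 of 20033 protein-coding genes treated in the same way. BAF is a chromatin remodelling complex that uses ATP to move nucleosomes. BRG1 (SMARCA4) and BRM (SMARCA2) are its alternative ATPases, and BAF155 (SMARCC1) is a scaffold subunit.

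Krüppel-like factors (KLFs) are zinc finger proteins that bind GC-rich and CACCC-type DNA. KLF2, KLF4 and KLF5 sustain self-renewal in mouse embryonic stem cells, KLF4 is one of the reprogramming factors, and KLF17 marks human naïve cells and the human epiblast. KLF6 is a widely expressed member of the family. TFCP2L1 belongs to the CP2 and grainyhead proteins and acts in the naïve pluripotency network downstream of LIF signalling. SOX2 is an HMG box factor that often binds next to OCT4.

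All samples were the established human embryonic stem cell (hESC) line WIBR3 on mouse embryonic fibroblast feeders. Naïve cells were grown in 5i/L/A medium and resemble the preimplantation epiblast, whereas primed cells were grown in conventional medium and resemble a later stage. BRG1, BAF155, BRM and SOX2 were profiled in both states with 1 usable list each (the 2 SOX2 libraries of a state came with the same list, and whether their reads were pooled is not stated), and no replicate error can be given for any value. On chromosomes 1 to 22, X and Y 57884 BRG1 peaks were called in naïve against 15611 in primed cells, 62338 against 58352 for BAF155, 17413 against 167 for BRM and 1940 against 9290 for SOX2. The read totals were not used here, so the lengths of the lists were not set against depth, and a position without a peak is a position without a call. The files hold no expression values. No p-value is given, because peaks of 1 list are not replicates.

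To ask where the complex was called around these genes, the peaks of each antibody were counted. Naïve BRG1 peaks numbered 7 at KLF2, 15 at KLF4, 20 at KLF5, 4 at KLF6, 5 at KLF17 and 7 at TFCP2L1. Primed BRG1 peaks numbered 1 at KLF2, 3 at KLF4, 3 at KLF5, 3 at KLF6, 0 at KLF17 and 1 at TFCP2L1. BRG1 was thus called more often in naïve cells at every locus, by the narrowest margin at KLF6, from a naïve list that was also the longer one. The median over all protein-coding genes was 6 naïve and 1 primed BRG1 peak, and KLF6 and KLF17 lay below this naïve median. A naïve BRG1 count as high as that of KLF5 was reached by 4.02% of genes. For KLF4 this share was 12.3%, and for KLF2 and TFCP2L1 45.7%. Naïve BAF155 peaks numbered 7 at KLF2, 20 at KLF4, 17 at KLF5, 6 at KLF6, 7 at KLF17 and 10 at TFCP2L1, and the primed BAF155 list gave 3, 10, 9, 8, 2 and 4 peaks in the same order of genes. The BAF155 lists are close in length, and KLF6 was the one locus with more BAF155 peaks in primed cells. Over all protein-coding genes the median was 6 naïve and 5 primed BAF155 peaks. A naïve BAF155 count as high as that of KLF4 was reached by 5.14% of genes and that of KLF5 by 10%. The shares were 33.3% for TFCP2L1, 49.5% for KLF2 and KLF17 and 56% for KLF6.

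**Figure D1:**
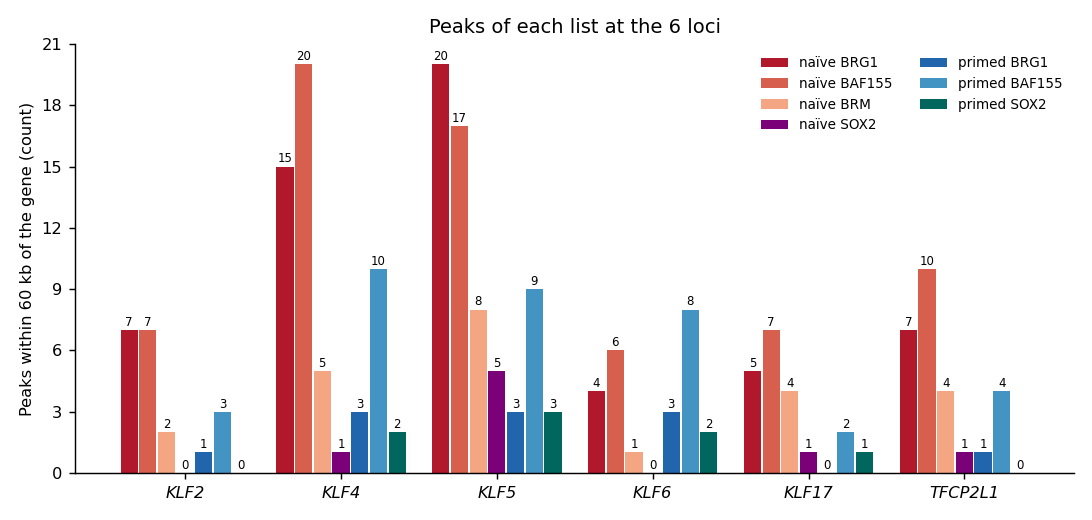
Number of peaks of each list (bars, count on the vertical axis) within 60 kb of the 6 genes (horizontal axis), with 1 peak list per bar. KLF4 and KLF5 carried the most naïve BRG1 and BAF155 peaks, between 15 and 20 each, and KLF6 carried 8 primed BAF155 peaks against 6 naïve ones.

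BRG1 and BAF155 peaks of a state were merged into BAF regions. A region was naïve-only or primed-only if less than 25% of either region overlapped a partner in the other state, and common otherwise. Of the 88 regions at the 6 loci, 53 were naïve-only, 13 primed-only and 22 common. Naïve-only regions made up 60.2% of them (95% Clopper-Pearson interval 49.2% to 70.5%, for counting error only), beside 45.4% over all BAF regions. Primed-only and common regions made up 28.5% and 26.1% of all BAF regions. Among the 66 state-specific regions the naïve-only share was 80.3% (68.7% to 89.1%), beside 61.4% over the whole genome. More naïve-only than primed-only regions were found at 5 of the 6 genes, beside a background of 66.1% of protein-coding genes, so the count of genes by itself lies near the background. KLF6, with 4 naïve-only and 5 primed-only regions, was among the 21.2% of genes with more primed-only regions.

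The size of the naïve excess depended on the peak threshold. Classes were set again from the peaks that passed, so a common region that lost its peaks of 1 state became state-specific. The KLF2 start kept a primed BAF155 peak (4.25-fold, −log10 q 6.26) at either threshold below and no naïve BRG1 or BAF155 peak. When peaks below a −log10 q of 3 were left out, 16 naïve-only and 13 primed-only regions were counted. The naïve-only share was 55.2% beside 44.2% over all state-specific regions. With peaks of at least 4-fold enrichment over the input, 4 naïve-only and 8 primed-only regions were counted, and the share was 33.3% beside 22.2%. Both pairs of counts include regions that were common in the main setting. With BRG1 alone the counts were 49 and 1, or 98% beside 90.1%, and with BAF155 alone 45 and 16, or 73.8% beside 52.4%. With the same number of top-ranked peaks of each antibody in both states they were 41 and 17, or 70.7% beside 50.1%. The direction of the pooled counts turned with the fold threshold, while in each of these alternatives the 6 loci lay above the genome-wide share by an amount that was not tested.

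**Figure D2:**
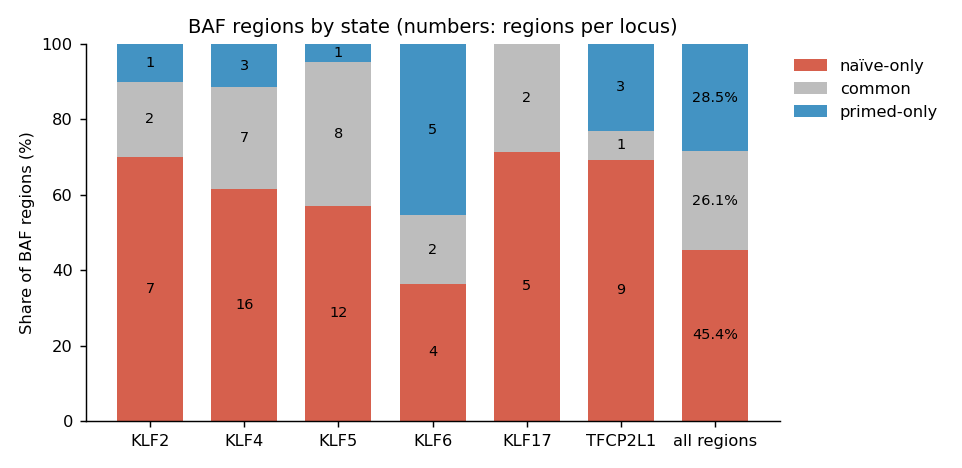
Share of BAF regions (vertical axis, %) that were naïve-only, common or primed-only at each locus and over all regions of the genome (last bar), with the number of regions printed for each locus. Naïve-only regions took the largest part at KLF2, KLF4, KLF5, KLF17 and TFCP2L1, and primed-only regions at KLF6.

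Of the 53 naïve-only regions, 24 were built from both BRG1 and BAF155 peaks (background 40.5%), 20 from BAF155 alone and 9 from BRG1 alone. All 13 primed-only regions were built from BAF155 peaks, and 0 of them held a primed BRG1 peak (background 11.9%). By the midpoint, 7 naïve-only regions lay within 1 kb of an annotated start of any gene, 2 in an exon, 9 in an intron and 35 in intergenic sequence. Of the 22 common regions, 9 lay near a start, 2 in an exon, 6 in an intron and 5 in intergenic sequence. Of the 13 primed-only regions, 1 lay near a start, 2 in an exon, 4 in an intron and 6 in intergenic sequence. Placement was not counted over all BAF regions, so these counts cannot show whether it is particular to the 6 loci. The median width was 1400 bp for common, 502 bp for naïve-only and 384 bp for primed-only regions, beside 1113, 422 and 374 bp over all regions of these classes, which have the same order. In the central 200 bases the median GC content of the common regions was 47.5%, beside 59.0% over all common regions. For naïve-only regions the values were 44% and 49.5%. Primed-only regions went the other way, with 50.5% at the 6 loci and 45.5% over all primed-only regions.

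**Figure D3:**
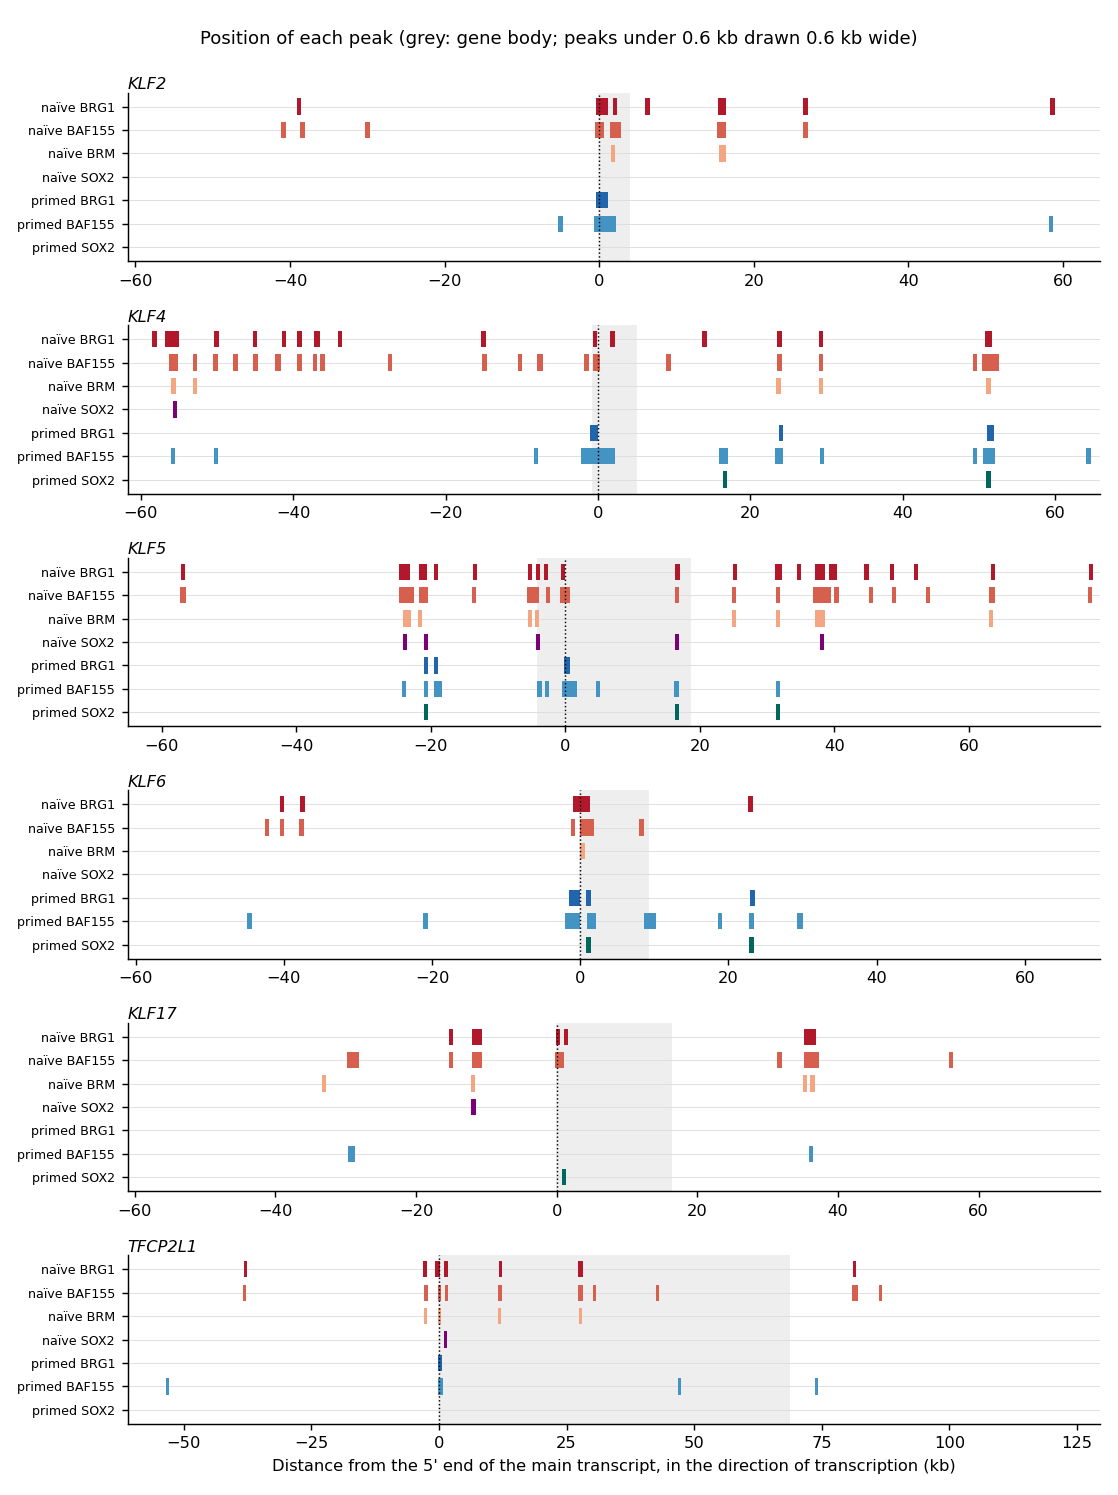
Peaks of the 7 lists (rows) at the 6 loci (panels), by distance from the 5′ end of the main transcript in the direction of transcription (horizontal axis, kb), with the gene body in grey and peaks under 0.6 kb drawn 0.6 kb wide. The naïve BRG1 and BAF155 peaks form a row upstream of KLF4 and another downstream of KLF5, and the start of KLF17 has no primed BRG1 or BAF155 peak.

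KLF17 (ENSG00000171872.5, chr1:44118821-44135140, plus strand) was the one locus of the 6 with no primed-only region, with 5 naïve-only and 2 common regions. At least 1 primed-only region was found at 77.9% of protein-coding genes, and related genes such as KLF1 and KLF10 also had none. The difference between naïve-only and primed-only regions at KLF17, 5, was reached by 33.3% of genes. KLF17 was also the one gene of the 6 whose start lay in a naïve-only region (chr1:44118649-44120397). That region was made of a BAF155 peak of 2.63-fold enrichment over the input and BRG1 peaks of 3.02-fold and 2.56-fold. Their −log10 q values were 1.98, 2.88 and 1.45, so none of them passed the threshold of 3 or that of 4-fold. The share of all genes with a start in a naïve-only region was not counted. The main starts of the other 5 genes lay in common regions. A naïve BRG1 and a naïve BAF155 peak lay within 1 kb of a start at 6 of 6 genes (backgrounds 66.8% and 67% of protein-coding genes). A primed BRG1 peak and a primed BAF155 peak were found there at 5 of 6 (backgrounds 33.8% and 72.7%), with KLF17 as the exception in both lists. The RefSeq promoter of KLF17 (GRCh38.p14, chr1:44118571-44118870, plus strand) overlaps the naïve BAF155 peak, while the naïve BRG1 peaks begin past its end. It is shown because primed BRG1 and BAF155 had no call within 1 kb of the start, unlike at the other 5 genes. The RefSeq promoter of KLF4 (chr9:107489720-107490019, minus strand), where BRG1 and BAF155 were called in both states, is shown beside it. Capitals mark the KLF word GGGNGNGGC and the TFAP2 word GCCNNNGGC on either strand.
KLF17 promoter: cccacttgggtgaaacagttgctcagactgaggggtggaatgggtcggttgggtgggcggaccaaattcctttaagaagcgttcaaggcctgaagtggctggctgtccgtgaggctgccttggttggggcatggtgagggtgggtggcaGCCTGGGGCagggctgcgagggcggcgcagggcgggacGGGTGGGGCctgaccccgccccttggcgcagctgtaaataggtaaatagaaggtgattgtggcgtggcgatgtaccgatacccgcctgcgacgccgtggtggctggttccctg
KLF4 promoter: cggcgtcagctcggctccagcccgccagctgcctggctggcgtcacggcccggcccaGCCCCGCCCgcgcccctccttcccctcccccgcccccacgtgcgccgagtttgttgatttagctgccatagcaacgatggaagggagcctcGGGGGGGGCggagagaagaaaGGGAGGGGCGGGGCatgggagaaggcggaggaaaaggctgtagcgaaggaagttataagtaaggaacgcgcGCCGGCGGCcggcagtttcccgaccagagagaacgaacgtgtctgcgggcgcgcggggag
The KLF17 promoter held 1 KLF word and the KLF4 promoter 4, of which a pair overlap each other. The KLF word was found in 30.6% of 35116 RefSeq promoters of the same length, in 2 copies at KLF2 and in 1 at KLF6, TFCP2L1 and the main start of KLF5. The promoter of the upstream start of KLF5 held none.

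The naïve-only region of highest fold at KLF17 lay 11.3 kb upstream of the start (chr1:44106715-44108252, 3.88-fold), in an intron of the lncRNA gene ENSG00000230615, and held naïve BRG1, BAF155, BRM and SOX2 peaks with no primed peak. Its SOX2 peak (chr1:44106812-44107156) had 11.6-fold enrichment and a −log10 q of 28.8, which placed it in the top 13.0% of the naïve SOX2 list. The BRM peak (chr1:44106873-44107027, 3.75-fold) lay inside the SOX2 peak and was the strongest BRM peak at the locus. In primed cells SOX2 was called elsewhere, 1.00 kb inside the gene in intron 1 (chr1:44119716-44119935, 7.32-fold, top 40.8% of the primed list). That peak lay within the naïve-only BAF region of the start, at which no primed BRG1 or BAF155 peak was called. The central 200 bases of both SOX2 peaks are shown because each state had its own site (hg38, plus strand, chr1:44106884-44107083 and chr1:44119726-44119925). Capitals here and in the SOX2 sequences below mark the SOX words CATTGT and CTTTGT and the OCT word ATGCNAAT on either strand.
KLF17 naïve SOX2: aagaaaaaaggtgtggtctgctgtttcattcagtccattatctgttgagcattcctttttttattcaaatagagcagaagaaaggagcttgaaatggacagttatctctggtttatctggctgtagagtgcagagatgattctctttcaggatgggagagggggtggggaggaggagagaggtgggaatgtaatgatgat
KLF17 primed SOX2: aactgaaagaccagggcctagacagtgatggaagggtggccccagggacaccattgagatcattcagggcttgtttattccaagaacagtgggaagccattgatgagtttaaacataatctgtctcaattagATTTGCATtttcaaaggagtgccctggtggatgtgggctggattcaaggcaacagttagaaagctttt
The naïve window held none of these words, and the primed window held 1 OCT word. The common region of highest fold lay 36.2 kb downstream of the start (chr1:44153992-44156122, 3.07-fold), with naïve BRM. The KLF17 window also covers KLF18, so both genes have the same counts.

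TFCP2L1 (ENSG00000115112.8, chr2:121216587-121285202, minus strand) had 13 BAF regions, of which 9 were naïve-only, 3 primed-only and 1 common, and 5 of the 9 naïve-only regions lay inside the gene. A pair of regions in intron 2 had the highest folds of any naïve-only region at the 6 loci. One lay 12.0 kb from the start (chr2:121272987-121273457, 4.81-fold) and the other 27.7 kb from it (chr2:121256926-121257987, 4.67-fold), and each held BRG1, BAF155 and BRM peaks. Their BRM peaks had 3.22-fold (chr2:121273207-121273422) and 3.70-fold enrichment (chr2:121257162-121257604). A weak naïve SOX2 peak (chr2:121283768-121284035, 5.71-fold, −log10 q 4.93, top 79.5% of the list by fold) lay 1.30 kb inside intron 1, in a naïve-only region with BRG1 and BAF155. TFCP2L1 had no primed SOX2 peak. The common region (chr2:121284458-121285896, 3.87-fold) covered the start, where naïve BRG1, BAF155 and BRM peaks and primed BRG1 and BAF155 peaks overlapped. The primed-only region of highest fold (chr2:121237940-121238181, 4.15-fold) lay in intron 8, 47.1 kb from the start. The centre of the strongest naïve-only region and of the SOX2 peak are shown (chr2:121273122-121273321 and chr2:121283802-121284001, plus strand).
TFCP2L1 intron 2: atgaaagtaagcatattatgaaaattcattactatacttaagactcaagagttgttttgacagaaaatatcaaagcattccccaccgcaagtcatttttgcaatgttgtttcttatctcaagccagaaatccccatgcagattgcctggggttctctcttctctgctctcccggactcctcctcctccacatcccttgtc
TFCP2L1 naïve SOX2: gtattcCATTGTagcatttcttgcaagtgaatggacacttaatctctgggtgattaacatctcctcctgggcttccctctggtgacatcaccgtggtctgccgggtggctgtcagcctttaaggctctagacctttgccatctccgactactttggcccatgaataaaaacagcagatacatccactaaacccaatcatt
The intron 2 window held no SOX, OCT, KLF or TFAP2 word, and the SOX2 window held 1 SOX word. TFCP2L1 was the one gene of the 6 with a positive difference of naïve-only and primed-only regions in 10 of 10 alternative settings, between 1 and 6 regions. At 4-fold the difference rested on 2 naïve-only regions and 1 primed-only region. In the main setting it was 6, which 28.1% of protein-coding genes reached. The share of genes with a positive difference in every setting was not counted.

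KLF5 (ENSG00000102554.14, chr13:73054976-73077541, plus strand) stood apart by SOX2. It carried 5 of the 8 naïve SOX2 peaks of the 6 loci, a number reached by 6 of 20033 protein-coding genes (0.03%). The other 5 genes lie together on chromosome 22 (APOBEC3C, APOBEC3D, APOBEC3F, APOBEC3G and ENSG00000284554) and share most of their windows. The strongest KLF5 peak (chr13:73096968-73097443) lay 38.2 kb downstream of the main start with 15.8-fold enrichment and a −log10 q of 32.9, in the top 4.23% of the naïve list. It lay in a naïve-only region of 3563 bp (chr13:73095896-73099458, 3.41-fold) that also held BRG1, BAF155 and BRM peaks and no primed peak. The next strongest (chr13:73038122-73038424, 14.2-fold, top 6.44%) lay 20.7 kb upstream, where the primed list had a peak of 5.70-fold (chr13:73038129-73038358, top 71.2% of the primed list). Its BAF region (chr13:73037240-73038601) held peaks of all 7 lists and had the highest fold of the common regions at KLF5, 4.98. Folds of separate lists were not on one scale, and places in lists of 1940 and 9290 peaks depend on their length, so neither shows a difference between states at this site.

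The next of the KLF5 peaks in strength (chr13:73054758-73055084, 10.5-fold, top 17.4%) covered the upstream alternative start of the gene, 4.08 kb before the main start. The strongest BRM peak of the locus (chr13:73054713-73055039, 3.67-fold) lay at the same place, beside naïve BRG1 and BAF155 peaks of 3.67-fold and 3.74-fold and a primed BAF155 peak of 2.78-fold. A primed SOX2 peak lay within 1 kb of an annotated start at KLF5, KLF6 and KLF17 (3 of 6 genes, background 5.62%). Of the 6 genes, KLF5 alone had a naïve SOX2 peak within 1 kb of an annotated start, beside a background of 0.659% of genes. The remaining naïve SOX2 peaks lay 23.8 kb upstream (chr13:73035035-73035295, 6.58-fold) and 16.6 kb inside the gene in intron 3 near a further annotated start (chr13:73075473-73075749, 7.06-fold). The second of these overlapped a primed peak of 6.69-fold (chr13:73075498-73075798). The last primed SOX2 peak lay 31.6 kb downstream (chr13:73090493-73090698, 5.15-fold) with no naïve partner, in a common region with naïve BRM. The windows of the naïve peaks at the downstream site, at the shared site and at the upstream start are shown, as the sites called in naïve cells alone, in both states, and at a start (chr13:73097106-73097305, chr13:73038173-73038372 and chr13:73054821-73055020, plus strand).
KLF5 downstream: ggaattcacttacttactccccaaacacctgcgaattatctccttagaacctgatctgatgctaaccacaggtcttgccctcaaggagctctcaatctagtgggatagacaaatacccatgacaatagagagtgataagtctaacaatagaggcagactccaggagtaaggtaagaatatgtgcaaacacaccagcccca
KLF5 shared: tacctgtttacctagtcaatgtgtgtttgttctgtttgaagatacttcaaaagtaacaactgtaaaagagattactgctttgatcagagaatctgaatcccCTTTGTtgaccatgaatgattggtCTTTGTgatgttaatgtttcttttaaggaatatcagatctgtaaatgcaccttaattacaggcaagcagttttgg
KLF5 upstream start: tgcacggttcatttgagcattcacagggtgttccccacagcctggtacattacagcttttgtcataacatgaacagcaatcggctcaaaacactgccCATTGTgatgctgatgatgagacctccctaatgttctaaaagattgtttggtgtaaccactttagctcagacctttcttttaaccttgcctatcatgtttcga
The downstream window held none of the words, the shared window 2 SOX words and the window at the upstream start 1 SOX word. Among the 12 naïve-only regions at KLF5, 10 lay downstream of the gene and 2 upstream, whereas 5 of the 8 common regions lay upstream of the main start. The single primed-only region lay in intron 3 (chr13:73063788-73064056, 3.74-fold). PIBF1 reaches into the window and held 1 of the upstream naïve-only regions in an intron.

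KLF4 (ENSG00000136826.15, chr9:107484852-107490482, minus strand) had the most naïve-only regions, 16, with 3 primed-only and 7 common regions. A difference between naïve-only and primed-only regions as large as this one was reached by 6.17% of protein-coding genes, and that of KLF5 by 9.86%. The differences of KLF2 and TFCP2L1 were each reached by 28.1% of genes and that of KLF17 by 33.3%. Of the 16 naïve-only regions, 14 lay upstream, between 7.61 and 58.2 kb from the start, in a stretch with no other protein-coding gene. The folds of the 16 regions ran from 2.47 to 3.95, and 8 of them rested on BAF155 alone and 4 on BRG1 alone. At this stricter q threshold the KLF4 difference was 1 region, as was that of KLF5. The naïve-only region of highest fold lay 9.26 kb downstream of the start (chr9:107480258-107480752, 3.95-fold), and the common region of highest fold, with naïve BRM and primed BRG1, 23.8 kb downstream (chr9:107465489-107466535, 5.04-fold), at the start of LINC01509. A naïve-only and a primed-only region about 8 kb upstream overlapped by their ends and were kept apart by the overlap rule (chr9:107497016-107497735 and chr9:107497722-107498093).

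SOX2 was called at different KLF4 sites in the 2 states. The naïve peak (chr9:107545117-107545409, 8.38-fold, top 34.3%) lay 55.5 kb upstream in a common region with BRM. The stronger primed peak (chr9:107472949-107473230, 8.47-fold, top 29.5%) lay 16.7 kb downstream in the primed-only region of highest fold at KLF4 (chr9:107472759-107473939, 3.72-fold), and the weaker one (chr9:107438419-107438687, 4.27-fold) 51.2 kb downstream in a common region. The stronger primed site is shown because it was the only one of the 8 primed SOX2 peaks in a primed-only region (chr9:107472990-107473189, plus strand).
KLF4 primed SOX2: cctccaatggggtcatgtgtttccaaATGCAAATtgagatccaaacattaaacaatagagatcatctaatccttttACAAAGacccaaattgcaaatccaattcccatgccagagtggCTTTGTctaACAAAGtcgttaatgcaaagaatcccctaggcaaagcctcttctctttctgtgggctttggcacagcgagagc
The window held 1 OCT word and 3 SOX words, more than any other SOX2 window at the 6 loci.

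KLF6 (ENSG00000067082.15, chr10:3775996-3785281, minus strand) was the one locus of the 6 with more primed-only than naïve-only regions. Its primed calls were not the most numerous, with 8 primed BAF155 peaks beside 10 at KLF4 and 9 at KLF5, and its 4 naïve BRG1 peaks were the fewest. It had 4 naïve-only, 5 primed-only and 2 common regions, no naïve SOX2 peak and 1 naïve BRM peak (chr10:3784598-3785175, 3.06-fold), which lay in the common region of the start. A primed SOX2 peak in intron 1 (chr10:3783865-3784308) lay 1.12 kb from the start with 14.0-fold enrichment and a −log10 q of 33.4, in the top 6.65% of the primed list, and was the strongest primed SOX2 peak at the 6 loci. Naïve and primed BRG1 and BAF155 peaks overlapped it. A weak primed SOX2 peak (chr10:3762009-3762232, 4.57-fold) lay 23.1 kb downstream in the common region of highest fold (chr10:3761712-3762366, 4.21-fold). The primed-only region of highest fold lay at the 3′ end of the gene (chr10:3774976-3776578, 4.03-fold), and the naïve-only one 40.2 kb upstream (chr10:3825187-3825729, 4.16-fold). The intron 1 window is shown as the site of the strongest primed call (chr10:3783987-3784186, plus strand).
KLF6 primed SOX2: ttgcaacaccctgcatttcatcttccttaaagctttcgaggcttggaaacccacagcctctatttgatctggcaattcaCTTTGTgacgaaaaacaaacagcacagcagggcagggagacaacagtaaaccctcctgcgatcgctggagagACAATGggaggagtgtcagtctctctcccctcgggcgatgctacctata
The window held 2 SOX words. With BRG1 peaks alone KLF6 turned to 2 naïve-only and 0 primed-only regions, so its primed excess rested on BAF155.

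KLF2 (ENSG00000127528.6, chr19:16324826-16328685, plus strand) had no SOX2 peak in either state, and its 10 BAF regions comprised 7 naïve-only, 1 primed-only and 2 common ones. The common region of highest fold (chr19:16324128-16327624, 4.25-fold) covered the start, with naïve and primed BRG1 and BAF155 peaks and a naïve BRM peak inside the gene (3.58-fold). The naïve-only region of highest fold lay in an intron of KLF2-DT, the divergent transcript, 38.8 kb upstream (chr19:16285756-16286247, 3.15-fold, BRG1 alone). Another, 15.9 kb downstream (chr19:16340102-16341286, 3.12-fold), held BRG1, BAF155 and a BRM peak (chr19:16340268-16341181) that at 3.58-fold was the strongest at the locus. The primed-only region (chr19:16319617-16320000, 2.96-fold) lay 5.02 kb upstream. EPS15L1 reaches into the window and held the other common region in an exon.

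Naïve BRM peaks were found at 6 of 6 loci, beside 70.2% of protein-coding genes. They numbered 2 at KLF2, 5 at KLF4, 8 at KLF5, 1 at KLF6, 4 at KLF17 and 4 at TFCP2L1, and a count as high as that of KLF5 was reached by 5.35% of genes. Of the 24 BRM peaks, 23 lay in a BAF region, the exception being a peak at KLF17 (chr1:44085512-44086057, 3.23-fold). BRM peaks marked 12 of the 22 common regions (background 32%) and 9 of the 53 naïve-only regions (background 14.2%). The 9 naïve-only regions comprised 3 at KLF5, 3 at TFCP2L1 and 1 each at KLF2, KLF4 and KLF17. Of the 24 peaks, 7 passed the stricter q threshold, and the highest fold was 3.77 (chr9:107460439-107460646, 29.2 kb downstream of the KLF4 start), so none was left at 4-fold. The primed BRM list had 0 peaks at the 6 loci, beside 0.619% of genes with one, and this list of 167 peaks could not show an absence.

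The naïve and the primed SOX2 lists each had 8 peaks at the 6 loci, although the primed list was the longer. A naïve SOX2 peak was found at 4 of 6 genes, beside a background of 13.2%, and a primed one at 4 of 6, beside 42.6%. KLF5 (5 against 3) and TFCP2L1 (1 weak peak against 0) had more naïve than primed SOX2 peaks, which was so for 4.25% of genes, and KLF4 and KLF6 had more primed ones. These counts depended on the length of the primed list. With the same number of top-ranked SOX2 peaks in both states the counts were 8 naïve and 1 primed, the primed one at KLF6, and 4 of the 6 genes (KLF4, KLF5, KLF17 and TFCP2L1) had more naïve peaks, beside 9.62% of protein-coding genes. Only 2 naïve peaks overlapped a primed peak, both at KLF5, which was 25% of either set beside 47.9% of all naïve and 10% of all primed SOX2 peaks. All 16 peaks lay in a BAF region, beside 95.7% and 90.9% over the lists. By class, 3 of the 8 naïve peaks lay in naïve-only regions, at KLF5, KLF17 and TFCP2L1, and the other 5 in common regions. Of the 8 primed peaks, 1 lay in a primed-only, 1 in a naïve-only and 6 in common regions. A SOX word lay in the central 200 bases of 5 of 8 naïve and 5 of 8 primed peaks (59.0% and 59.5% over the lists). An OCT word lay in 0 of 8 naïve peaks and 4 of 8 primed peaks, beside 19.2% and 13.0% over the lists.

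**Figure D4:**
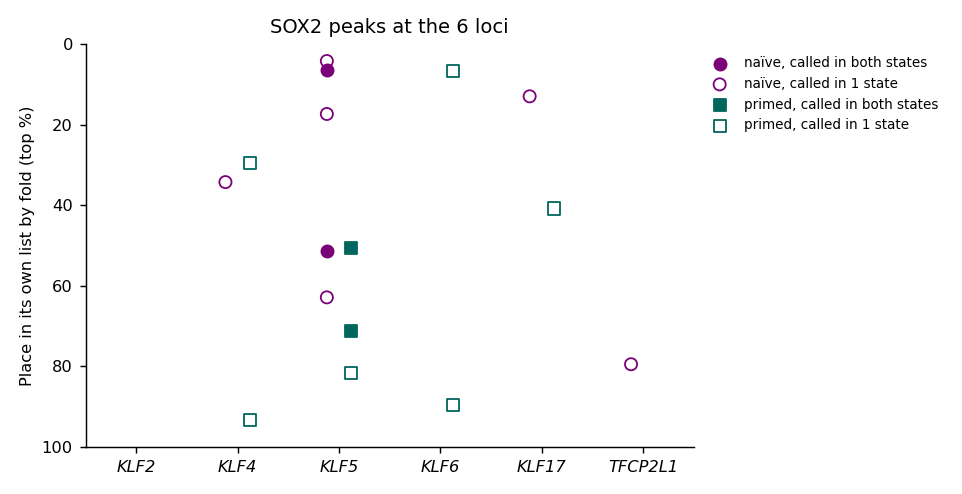
SOX2 peaks at the 6 loci (horizontal axis), each at its place by fold enrichment within its own list (vertical axis, top % of the list, strongest at the top), with naïve peaks as circles, primed peaks as squares and peaks called in both states filled. Places are not comparable between the naïve list of 1940 peaks and the primed list of 9290. The strongest naïve calls belong to KLF5 (top 4.23% and 6.44%) and KLF17 (top 13.0%), and the strongest primed call to KLF6 (top 6.65%).

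The same words were counted in the BAF regions. The KLF word lay in the central 200 bases of 3 of 53 naïve-only regions (5.66%, beside 12.0% of all naïve-only regions), 0 of 13 primed-only regions (background 5.82%) and 4 of 22 common regions (18.2%, beside 21.2%). The SOX word lay in 22.6% of the naïve-only and 38.5% of the primed-only regions, beside 22.3% and 34.9%, and in 3 of 22 common regions (13.6%, beside 18.2%). The OCT word lay in 5 of 53 naïve-only regions (9.43%, beside 4.16%), in 0 of 13 primed-only regions (background 5.86%) and in 0 of 22 common regions (background 3.47%). The TFAP2 word lay in 2 of 53 naïve-only regions (3.77%, beside 10.7%), 1 of 13 primed-only regions (7.69%, beside 6.21%) and 3 of 22 common regions (13.6%, beside 19.2%). These counts are small, and a word is not a bound site.

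Among 18 related genes (the other KLF genes, TFCP2, UBP1 and the grainyhead genes) 14 had more naïve-only than primed-only regions (background 66.1%), 3 had fewer (KLF7, KLF12 and GRHL2) and KLF14 had as many. KLF18 was 1 of the 14 and has the same counts as the KLF17 locus. Without KLF18 the number was 13 of 17. The median difference was 4 regions, beside 6 for the 6 genes and 2 for all protein-coding genes. KLF16, at 17 naïve-only and 2 primed-only regions, had a difference of 15 and so exceeded KLF4, at 13. Naïve BRM was found at 13 of the 18 (background 70.2%), or 12 of 17 without KLF18. A naïve SOX2 peak was found at 3 of the 18 (KLF3, KLF13 and KLF18, the last through the window it shares with KLF17; background 13.2%) and a primed one at 9 (background 42.6%). Over the whole lists 0 of the 18 had more naïve than primed SOX2 peaks (background 4.25%). The differences from these backgrounds were not tested. With SOX2 lists of equal length, 2 of the 18 had more naïve SOX2 peaks (KLF3 and KLF18, the latter by the peak of the KLF17 window) and 2 had more primed ones (GRHL3 and UBP1).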

How the data were processed

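ChIP-seq was performed on WIBR3 hESCs in both states. Per the labels, SOX2 libraries were read as paired ends and BAF libraries as single ends. The study's methods state that the authors trimmed reads, mapped them to hg38 with bowtie2, removed duplicates and ran MACS2 with the input as control, in narrow mode for SOX2 and in broad mode for BAF subunits. The submitters' processing notes name Bowtie2 2.3.4, SAMtools 0.1.19 and FastQC 0.10.1. Besides positions, the deposited lists give a score, a fold enrichment over input (that is, a ratio), and p- and q-values as −log10. Positions alone are given for primed BRM and for 1 of the SOX2 libraries in either state. The authors' scores and −log10 p were not used here. BAF lists reach down to a −log10 q of 1.00, SOX2 lists to 1.31 in naïve and 1.35 in primed cells.

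Within each state both SOX2 libraries had identical peak coordinates and were counted as 1 sample, with pooling before peak calling not stated, and other groups have 1 library. The planned spread over SOX2 replicates could not be given. Of 14 samples, 4 are inputs with no file used here. Peaks of chromosomes 1 to 22, X and Y were read with Python 3.11.15, pandas 2.3.3, numpy 2.4.6 and scipy 1.17.1, and the overlap steps were tested on simulated intervals. Gene bodies, starts, exons and introns came from GENCODE release 44, with the main transcript of each gene setting its main start. A peak or region belongs to a locus if it touches it, and its annotation and distance are those of its midpoint. Merged regions carry the highest fold of their peaks. Background counts used all 20033 protein-coding genes with the same flank, and percentages of genes count those at or above the value. Promoters are 1 kb to each side of any annotated start in GENCODE, and RefSeq promoters are 250 bases before to 50 after a start, with 7 promoters matched for the 6 genes and the same letters in hg38. Words were counted on both strands in 200-base windows at midpoints, with overlapping matches each counted. Intervals are Clopper-Pearson at the 95% level and cover counting error only.

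The members and gene lists were chosen with earlier results of these data known. Sites named are all SOX2 peaks, peaks on member promoters, and per locus the region of each class and the BRM peak of highest fold. The other sites, the single BRM peak outside BAF regions and the sequences printed were chosen after their values were seen. Alternatives were the overlap rule, flanks of 20 and 100 kb, thresholds of −log10 q of 3 and fold of 4, single antibodies, lists of equal length, promoters of 2 kb and, chosen after seeing the data, word windows of 400 bases.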

Additional observations from a re-analysis of the deposited data

How the results depend on the processing

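Of the values that answer a comparison, 34 alternatives left the count within 1.5 times and 13 moved it, not counting those that leave out a SOX2 list. With a flank of 20 kb the naïve-only count fell from 53 to 24 and the primed-only count from 13 to 8, and with 100 kb the primed-only count was 20, since the windows hold less or more sequence. With a −log10 q of at least 3 the counts were 16 naïve-only and 9 common regions and 7 BRM peaks. With a fold of at least 4 they were 4 naïve-only, 8 primed-only and 0 common regions and 0 BRM peaks. With BRG1 alone they were 1 primed-only and 9 common regions. With lists of equal length 1 primed SOX2 peak was left of 8, as the primed list was cut to the length of the naïve one. The difference of naïve-only and primed-only regions reversed at a fold of at least 4 for KLF2 (-1), KLF4 (-1) and KLF5 (-2), and with BRG1 alone for KLF6 (2). In the main setting no state-specific region reached 4-fold at KLF2, KLF4 or KLF5 (highest 3.15, 3.95 and 3.74). The regions counted at these loci at 4-fold had thus been common, and their peaks of the other state fell below the threshold. These reversals therefore do not show strong primed-only sites. Why the folds differed between the lists was not tested. Changing the overlap rule left 52 to 60 naïve-only and 12 to 18 primed-only regions. With 2 kb promoters 2 genes had a naïve SOX2 peak at a start, and with main starts alone 0 did. In windows of 400 bases the words were found more often, with the SOX word at 43.4% of naïve-only regions (38.7% over the genome), the TFAP2 word at 11.3% of them (17.8%), the KLF word at 15.4% of primed-only regions (10.4%) and the OCT word at 9.09% of common regions (6.13%). Leaving out either SOX2 list gave 8 and 8 peaks, as their coordinates are the same, so this says nothing about stability. No paired analysis was possible because both SOX2 lists of a state are the same list and no test was run. With 1 library per BAF antibody and 1 list per state for SOX2, no difference between states can be separated from a difference between libraries, and a missing peak sets no limit on occupancy.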

Other observations

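The protein-coding genes whose counts in the 7 lists most resembled those of each locus were found by the Euclidean distance between log2(count + 1) values. For KLF5 the nearest was NANOG, a core pluripotency factor, at a distance of 0.99, followed by CCDC62 at 1.05 and APOBEC3H at 1.07. For KLF4 it was IFT22 at 0.33, for KLF17 SMCO2 at 0.38, for TFCP2L1 CNOT11 at 0.35 and for KLF6 NUDT8 and TBX10 at 0.30. NKAP and SBDS had the same counts as KLF2, at a distance of 0. KLF5 thus had no near match over the 7 lists, and the distances describe counts of 1 list each.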
